A study of Mus musculus with 12 samples.

Results

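Rostral serotonin neurons of the mouse embryo were compared with the other cells of the same stretch of neural tube. The comparison used 6 of the 12 arrays of the series, 3 of YFP-positive rostral cells (R+) and 3 of YFP-negative rostral cells (R-), which were chosen by their labels and not by any measured value. All embryos were at stage E12.5 and carried the ePet-EYFP transgene, whose Pet-1 enhancer labels serotonin neurons with yellow fluorescent protein (YFP), so that R+ and R- share this genotype. The rostral domain reached from the mesencephalic to the pontine flexure. Its cells were dissociated with mild trypsin, separated by fluorescence-activated cell sorting and collected into Trizol, and each Affymetrix Mouse 430 2.0 array was made from 200000 sorted cells with one round of amplification. The matching populations of the caudal domain, between the pontine flexure and the spinal cord, are named C+ and C- (3 arrays each, same genotype and stage) and are used here only to show where the rostral difference was not the caudal one. The labels call R- non-serotonergic neurons, but all YFP-negative cells were collected, and markers of progenitors, dividing cells and red blood cells were bright on the R- arrays, so R- is described here as a mixture. In such bulk samples fewer cells of a type and less RNA per cell cannot be told apart. The replicates are labelled biological but no litter is named, and p-values therefore reflect only how much these samples varied.

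Serotonin neurons make their transmitter from tryptophan in a pair of enzymatic steps, load it into vesicles, take it back up through a dedicated transporter and break it down with monoamine oxidases. In the embryo they arise beside the floor plate of the hindbrain under a cascade of transcription factors that includes Nkx2-2, Gata2, Lmx1b and Pet-1. The rostral group lies around the isthmus and later forms the dorsal and median raphe nuclei, which send ascending axons to the forebrain.

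Values are MAS5 signals, a linear measure of probe set brightness. Of 18193 genes with a probe set of their own, 12845 were bright enough to be tested (at least 3 arrays with a signal above 107, which was the median of the whole table), each through 1 probe set. Differences are on the log2(signal + 10) scale, R+ minus R- ± SE, which understates the change of dim genes. Adjusted p-values come from limma with Benjamini-Hochberg adjustment over all 12845 genes, and "higher", "lower" and "changed" are used for genes with an adjusted p under 0.05. Signals of different genes cannot be set against each other, because probe sets differ in brightness. The median signal of the 6 rostral arrays lay between 93 and 113. RNA integrity was read from the control probe sets at the ends of beta-actin, whose 3'/5' ratio was 3.24 ± 0.52 (SD, n = 3) in R+ and 3.52 ± 0.78 in R- (two-sided exact permutation test, p = 0.7; the smallest p that 3 against 3 arrays allow is 0.1). The Gapdh ratio was 1.38 ± 0.28 and 1.49 ± 0.57 (exact p = 1), and the groups overlapped in both ratios.

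Between R+ and R- 1567 genes differed, which was 12.2% of those tested, with 557 higher (4.34%) and 1010 lower in R+ (7.86%). The counts of the gene lists below are to be read beside these shares. The higher genes were the smaller group but reached further. Differences of at least 16-fold were found in 14 higher and 2 lower genes, whereas at least 2-fold differences were found in 252 higher and 653 lower genes. The median difference was 0.95 among higher and -1.28 among lower genes, against -0.01 over all genes tested. All 3 R+ arrays lay above all 3 R- arrays for 554 of the 557 higher genes, and the reverse held for 1006 of the 1010 lower genes. Over all genes tested the groups did not overlap for 12.1% with R+ above and 16.4% with R- above. Where a called gene is said below to be separate between the groups, this therefore adds little to its call. In R- the mean signal was at or under 107 for 58 of the higher genes, and in R+ for 211 of the lower ones, so that those folds rest on a dim group. With the replicate number of the titles as a block the counts were 1103 higher (8.59%) and 1581 lower (12.3%), and all 1567 genes were among them. Without the 4 arrays numbered 2 the counts were 222 higher and 425 lower, without those numbered 3 they were 199 and 442, and without R- array 3 alone 669 were lower.

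**Figure D1:**
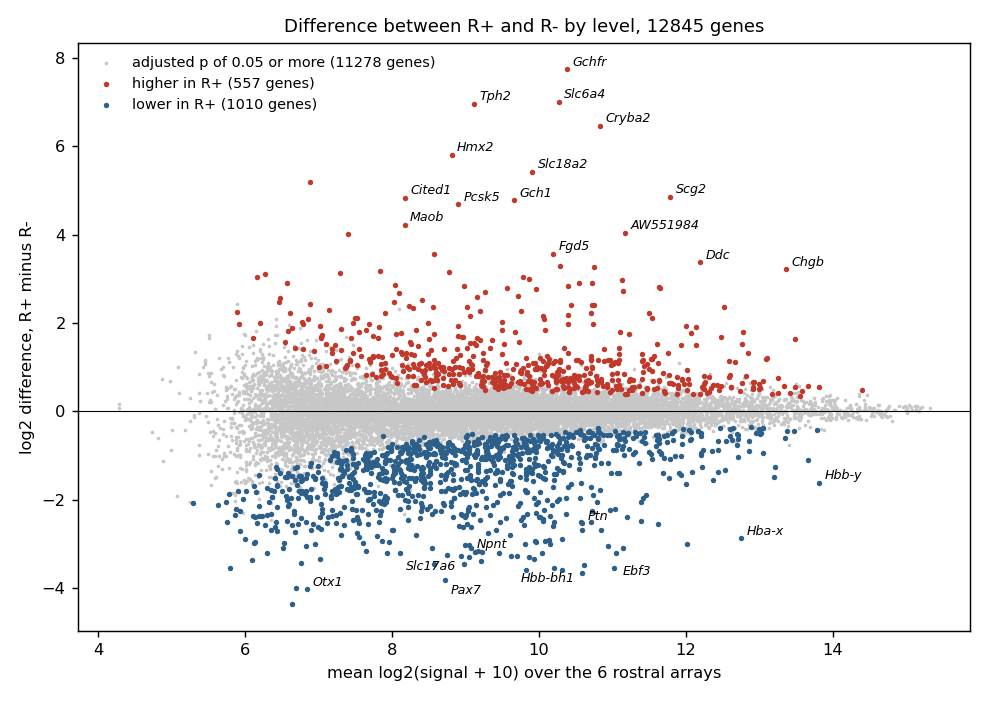
Each point is one of 12845 genes; the x axis gives the mean of log2(signal + 10) over the 6 rostral arrays and the y axis the log2 difference, R+ minus R-. The 557 higher genes (red) extend to 7.73 for Gchfr, while the 1010 lower genes (blue) reach -4.35 for Mfap4 and grey points did not pass the threshold.

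The 3 marker genes of the population all bore out the sort. Tph2, the neuronal tryptophan hydroxylase that sets the rate of serotonin synthesis, gave signals of 5578, 6784 and 6270 on the R+ arrays and of 20, 35 and 83 on the R- arrays. Slc6a4, the serotonin transporter, gave 14198, 14012 and 13608 in R+ and 66, 118 and 124 in R-. The homeobox gene Hmx2 gave 3999, 2915 and 3200 in R+ and 45, 32 and 84 in R-. None of the 3 genes overlapped between the groups, and on every R- array but 2 of Slc6a4 their signals were under the median of all values. The log2 differences were 6.95 ± 0.34 for Tph2 (adjusted p = 4.73e-09), 6.996 ± 0.32 for Slc6a4 (adjusted p = 2.73e-09) and 5.80 ± 0.38 for Hmx2 (adjusted p = 8.87e-08). Fev, the gene of Pet-1, was not analysed here.

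The chemistry of serotonin was higher in R+ from synthesis to breakdown of the transmitter, whereas an uptake gene of its amino acid precursors was lower. Of 17 listed genes that make, store, take up or break down serotonin 14 were tested; 7 were higher and 1 was lower, with a median difference of 0.52. Ddc, which converts 5-hydroxytryptophan to serotonin, gave 15667, 15207 and 14259 in R+ and 1739, 1321 and 1315 in R- (3.37 ± 0.14, adjusted p = 1.16e-09). The groups were far apart, yet Ddc was well above the median signal in R- too, unlike Tph2. Slc18a2, which loads monoamines into vesicles, gave 6919, 5810 and 6192 in R+ and 112, 144 and 159 in R- (5.42 ± 0.18, adjusted p = 6.15e-11). Both monoamine oxidases were higher. Maoa gave 4090, 4724 and 5100 against 467, 607 and 785 (2.91 ± 0.19), and Maob gave 1155, 1218 and 1328 against 42, 68 and 64 (4.21 ± 0.38). For both enzymes the groups were separate, and Maob in R- stayed under the median of all values. Slc29a4, a low-affinity monoamine transporter of the plasma membrane, was higher by 0.68 ± 0.19 (adjusted p = 0.0261). The lower member was Slc7a5, a large neutral amino acid transporter, at 537, 328 and 338 in R+ and 607, 757 and 721 in R- (-0.81 ± 0.22, adjusted p = 0.024), a call that was lost without array 2 or 3 of either R+ or R-. Tph1, the tryptophan hydroxylase of peripheral tissue, had a difference of -0.23 ± 0.47 with overlapping groups (adjusted p = 0.848). The groups also overlapped for the listed genes Aldh2 (-0.02 ± 0.16) and Slc3a2 (0.35 ± 0.19), which did not pass.

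Tryptophan hydroxylase needs tetrahydrobiopterin, and the genes that make and recycle this cofactor were tested as a list of 11, of which 8 passed the signal filter. Of these 4 were higher and 0 lower (median 0.56). Gchfr, which mediates feedback inhibition of the first enzyme of the pathway, had the largest difference of all genes tested: 20108, 19338 and 19154 in R+ and 35, 126 and 117 in R- (7.73 ± 0.34, adjusted p = 1.68e-09). Gch1, that first enzyme, gave 4815, 3448 and 4486 in R+ and 183, 137 and 119 in R- (4.77 ± 0.45, adjusted p = 3.36e-06). The next enzymes on the route to the cofactor did not pass: Pts had a difference of 0.24 ± 0.15 (adjusted p = 0.408) and Spr one of -0.002 ± 0.42, both with overlapping groups. Of the recycling genes Qdpr and Pcbd1 were higher, and Pcbd2 overlapped (0.19 ± 0.16, adjusted p = 0.568). Qdpr gave 5121, 3209 and 3946 against 2077, 1482 and 1973 (1.13 ± 0.21, adjusted p = 0.00199; 0.0589 without the 4 arrays numbered 3), and Pcbd1 gave 3016, 2670 and 2991 against 1611, 1602 and 1496 (0.88 ± 0.15, adjusted p = 0.00132).

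**Figure D2:**
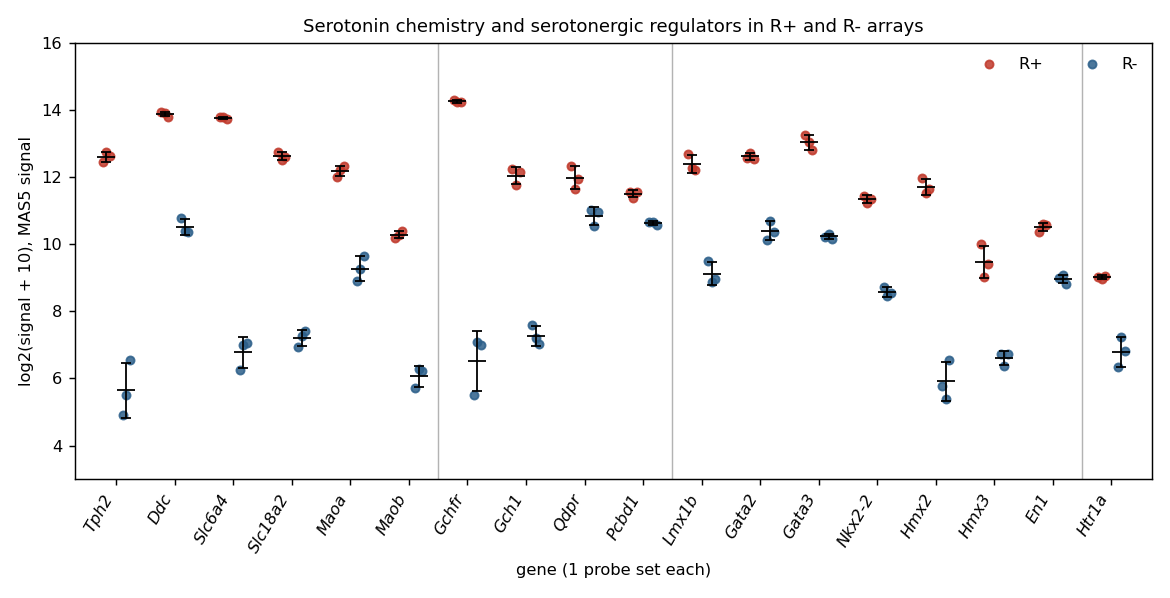
Points are the 3 R+ (red) and 3 R- (blue) arrays of each gene on the log2(signal + 10) scale, with bars for the mean and SD; grey lines part serotonin chemistry, cofactor genes, transcription factors and the receptor Htr1a. The 18 genes shown were picked among the higher ones, so it follows from the choice that their R+ arrays lie above the R- arrays. The widest gap shown is that of Gchfr (7.73) and the narrowest that of Pcbd1 (0.88). Lower members of the lists, members that did not pass and the higher gene Slc29a4 (0.68) are not shown.

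Some genes of dense-core vesicles, the organelles that store neuropeptides, were higher in R+. Of 22 listed granin, vesicle and prohormone processing genes 20 were tested; 6 were higher and 1 lower, with a median of 0.33. Scg2, a granin, gave 19737, 18993 and 18240 in R+ and 638, 696 and 610 in R- (4.85 ± 0.13, adjusted p = 7.84e-12, the smallest of any gene). Chgb, another granin, gave 34903, 36569 and 26084 in R+ and 3785, 3864 and 2810 in R- (3.22 ± 0.15, adjusted p = 4.73e-09). Chga, chromogranin A, overlapped between the groups with 1428, 1238 and 1268 in R+ and 1232, 1394 and 1279 in R- (0.01 ± 0.14). Among the proteases that cleave prohormones Pcsk5 gave 3089, 2485 and 1815 against 93, 103 and 62 (4.68 ± 0.30, adjusted p = 7.95e-08); of its other probe sets one was higher by 3.83 and one had a difference of 2.04 that did not pass. Baiap3, which takes part in dense-core vesicle traffic, gave 679, 693 and 702 against 129, 124 and 130 (2.35 ± 0.23), and the vesicle membrane protein Ptprn gave 983, 723 and 870 against 217, 270 and 284 (1.70 ± 0.21). The groups were separate in each of these, and Pcsk1n, a granin-like inhibitor, was higher as well (1.13). The lower gene was the vesicle priming factor Cadps2 (-1.47 ± 0.40, adjusted p = 0.0238), a call that was lost without R+ array 1 or 3 or R- array 1 or 2.

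The promoters of 4 of these genes are shown because their genes differed by over 3 on the log2 scale and hold short motifs of factor families named above or of general use; they were chosen after the matches were seen. Each runs from 250 bases before the RefSeq transcription start to 10 bases after it, 5' to 3' on the strand of the gene, in build GRCm38.p6: Tph2 at chr10:115185013-115185272 (minus strand), Slc18a2 at chr19:59260628-59260887 (plus), Scg2 at chr1:79440017-79440276 (minus) and Chgb at chr2:132781392-132781651 (plus). Capitals mark AGATAA, which is a GATA motif and reads as its complement where it lies on the opposite strand. They also mark the cyclic AMP response element, TGACGTCA. The motif of the TATA box, TATAAA, is in capitals as well.
Tph2: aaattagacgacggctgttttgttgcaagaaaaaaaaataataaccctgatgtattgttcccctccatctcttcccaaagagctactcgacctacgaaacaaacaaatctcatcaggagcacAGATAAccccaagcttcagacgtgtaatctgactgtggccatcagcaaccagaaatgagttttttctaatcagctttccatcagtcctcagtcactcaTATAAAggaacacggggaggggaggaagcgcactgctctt
Slc18a2: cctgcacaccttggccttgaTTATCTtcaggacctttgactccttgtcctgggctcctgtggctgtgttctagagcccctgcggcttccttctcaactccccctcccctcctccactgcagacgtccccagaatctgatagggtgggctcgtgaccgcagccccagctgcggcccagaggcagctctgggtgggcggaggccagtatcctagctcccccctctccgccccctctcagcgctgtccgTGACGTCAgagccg
Scg2: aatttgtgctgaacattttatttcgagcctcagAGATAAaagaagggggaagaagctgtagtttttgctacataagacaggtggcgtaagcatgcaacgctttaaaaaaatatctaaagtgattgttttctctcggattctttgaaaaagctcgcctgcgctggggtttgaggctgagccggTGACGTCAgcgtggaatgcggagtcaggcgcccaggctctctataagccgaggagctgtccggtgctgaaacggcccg
Chgb: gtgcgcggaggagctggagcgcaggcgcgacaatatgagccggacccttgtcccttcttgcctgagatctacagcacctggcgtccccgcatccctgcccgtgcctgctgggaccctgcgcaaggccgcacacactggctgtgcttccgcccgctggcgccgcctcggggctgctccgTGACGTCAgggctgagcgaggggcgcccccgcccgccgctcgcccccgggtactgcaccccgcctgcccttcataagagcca
Positions below count from the start site to the first base of the match. In Tph2 the GATA motif lay at -128 and the TATA motif at -30, in Slc18a2 TGACGTCA lay at -4 and the GATA motif at -230 on the opposite strand, in Scg2 they lay at -68 and -217, and in Chgb TGACGTCA lay at -72.

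The same motifs were counted over all promoters, as a description. Windows from 250 bases before to 50 bases after the start were searched on both strands for these motifs and for CCGGAA, the core of sites of the ETS family, to which Pet-1 belongs. None of the 4 motifs contains another. RefSeq promoters were matched by symbol to 10373 of the 12845 tested genes (13329 promoters), to 446 of the 557 higher genes (643 promoters) and to 826 of the 1010 lower ones (1074 promoters). AGATAA was present in 7.31% of promoters of higher genes, 5.87% of lower genes, 6.27% of tested genes and 11.2% of all 32851 promoters. TGACGTCA was present in 2.49%, 2.79%, 2.96% and 1.79%, in the same order, and TATAAA in 9.18%, 8.66%, 7.61% and 13.6%. CCGGAA was present in 11.5% of promoters of higher genes against 19.6% of lower, 25% of tested and 14.9% of all. Among the 15 genes with the largest increase, 14 had a promoter (20 in all), of which 3 held AGATAA, 2 TGACGTCA, 6 TATAAA and 0 CCGGAA. These are counts of letters in a window, without a test and without a statement on binding.

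Transcription factors of the serotonergic lineage moved both ways. Of 17 listed 15 were tested, with 7 higher, 3 lower and a median of 0.10. Lmx1b, a LIM homeobox factor required for serotonin neurons, gave 6592, 4889 and 4758 in R+ and 715, 462 and 487 in R- (3.27 ± 0.28, adjusted p = 1.34e-06). The zinc finger factor Gata3 gave 9768, 8426 and 7192 against 1188, 1249 and 1132 (2.81 ± 0.22), and Gata2 gave 6060, 6745 and 5949 against 1112, 1642 and 1301 (2.22 ± 0.15). All 3 were present in both populations at signals above the median and separate between them. Nkx2-2, a factor of the ventral progenitors from which serotonin neurons arise, gave 2782, 2384 and 2610 against 413, 340 and 365 (2.77 ± 0.18). Hmx3, the neighbour and relative of Hmx2, gave 1006, 512 and 666 against 96, 72 and 96 (2.87 ± 0.39). En1, an engrailed factor of the midbrain and rostral hindbrain, gave 1317, 1544 and 1510 against 494, 526 and 441 (1.56 ± 0.29, adjusted p = 0.00191; 0.0549 without the 4 arrays numbered 2). Its partner En2 lay the other way, with 2092, 2312 and 2224 in R+ and 3339, 4041 and 3452 in R-, so that no array overlapped. That difference of -0.70 ± 0.34 did not pass in the fit over all 12 arrays (adjusted p = 0.225), and passed with only the 6 rostral arrays (adjusted p = 0.00521).

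The 3 lower factors are known for other steps. Foxa2, a floor plate and ventral progenitor factor, gave 380, 486 and 468 in R+ and 1503, 1189 and 1314 in R- (-1.57 ± 0.33, adjusted p = 0.00537; 0.0981 without the 4 arrays numbered 3). Nkx6-1, a ventral progenitor and motor neuron factor, gave 236, 237 and 122 against 915, 658 and 474 (-1.74 ± 0.37, adjusted p = 0.00529; 0.0777 without those numbered 2). St18, a zinc finger factor, gave 365, 629 and 470 against 1421, 2112 and 1656 (-1.82 ± 0.23), and its other probe set, at -0.89, did not pass. R- was above R+ on every array for each. The pan-neuronal factors Insm1 (0.10 ± 0.21), Sox4 (-0.13 ± 0.13) and Sox11 (0.08) overlapped between the groups.

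Among the serotonin receptors and among the neuropeptides 1 gene each was higher. Of 14 listed serotonin receptors 8 were tested, 1 was higher and 0 were lower, beside 12.2% of all genes tested that changed. The higher receptor was Htr1a, the autoreceptor of serotonin neurons, with 512, 486 and 525 in R+ and 71, 141 and 102 in R- (2.22 ± 0.24, adjusted p = 1.43e-05), while a second probe set gave 0.96 and did not pass. Htr1b, the other autoreceptor, overlapped (-0.17 ± 0.42). Among neuropeptide precursors, 21 of 30 listed were tested, with 1 higher (4.76%) and 7 lower (33.3%; median -0.80). Over all genes tested 4.34% were higher and 7.86% lower, so the share of higher ones was close to that of all genes. The higher one was Penk, the enkephalin precursor, with 2590, 2228 and 2747 against 303, 281 and 309 (3.04 ± 0.21, adjusted p = 2.05e-07). Lower ones were Sst, somatostatin, with 511, 590 and 1088 in R+ and 8805, 4976 and 6022 in R- (-3.20 ± 0.29), Cartpt with 181, 230 and 311 against 1790, 1340 and 1829 (-2.75 ± 0.22), and Npy, neuropeptide Y, with 189, 168 and 206 against 1241, 1159 and 1123 (-2.59 ± 0.16). Nts (-2.52 ± 0.39), Cck (-2.21 ± 0.37) and Tac1 (-1.67 ± 0.20), the precursors of neurotensin, cholecystokinin and substance P, were lower as well. No neuropeptide named here overlapped between the groups.

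Genes of the release machinery changed in both directions. Of 38 listed synaptic vesicle and exocytosis genes 33 were tested, with 7 higher (21.2%), 4 lower (12.1%) and a median of 0.14. Over all genes tested 4.34% were higher and 7.86% lower. Syt1, the calcium sensor of fast release, gave 13033, 14520 and 12473 in R+ and 2185, 2830 and 2723 in R- (2.37 ± 0.14, adjusted p = 3.52e-08), with 2 other probe sets also higher and one, at 0.67, not passing. Sv2b, a vesicle glycoprotein, gave 627, 838 and 682 against 171, 217 and 132 (2.00 ± 0.23). Syt13, a synaptotagmin that does not bind calcium, ran the other way with 345, 454 and 252 against 829, 1135 and 1330 (-1.63 ± 0.23). The groups were separate for all 3. Without the 4 arrays numbered 2 the list had 3 higher and 1 lower, and without R+ array 2 or R- array 2 alone the lower count was 2.

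G protein signalling genes changed in both directions. Of 38 listed 36 were tested, with 8 higher and 7 lower (median 0.09). Gng4, a G protein gamma subunit, gave 3671, 4747 and 3937 in R+ and 1046, 1358 and 1126 in R- (1.80 ± 0.18, adjusted p = 8.5e-06), and Prkcb, a protein kinase C, gave 4379, 3850 and 3583 against 2422, 1859 and 1597 (1.02 ± 0.15; a second probe set at 0.60 did not pass). The lower genes included some regulators of G protein signalling, which shorten the signal. Rgs4 gave 36, 124 and 25 against 298, 451 and 499 (-2.80 ± 0.49), Rgs16 gave 225, 333 and 307 against 959, 1892 and 1214 (-2.15 ± 0.34), and Rgs8 gave 395, 291 and 270 against 711, 968 and 964 (-1.44 ± 0.21). Another gamma subunit, Gng8, gave 133, 153 and 235 against 472, 482 and 543 (-1.51 ± 0.30). Every named member of the list was separate between the groups; without the arrays numbered 2 the counts were 2 higher and 5 lower.

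Ion channel genes passed at 26.9% for sodium, calcium and HCN channels and at 11.1% for potassium channels, beside 12.2% of all genes tested. Of 31 listed sodium, calcium and HCN channel genes 26 were tested, with 6 higher, 1 lower and a median of 0.41; with the replicate block 10 were higher and 1 lower, and without the arrays numbered 3 only 2 were higher. Cacna2d1, an auxiliary calcium channel subunit and gabapentin target, gave 6156, 6747 and 5707 against 1304, 1635 and 1333 (2.12 ± 0.12, adjusted p = 3.52e-08; a noisy probe set at 2.28 did not pass). Scn3b, a sodium channel beta subunit, gave 5924, 5136 and 5414 against 2285, 2233 and 2015 (1.33 ± 0.12). The lower one was another calcium channel auxiliary subunit, Cacna2d2 (-1.53 ± 0.33, adjusted p = 0.00534). For potassium channels, 27 of 43 listed were tested, with Kcna6 (2.00) and Kcns2 (1.65) higher and Kcnj10 (-0.91) lower, and without the arrays numbered 2 none of them was called. The potassium channel calls fell to 1 higher without any single R+ array or R- array 3, and to 0 lower without any R+ array or R- array 2 or 3.

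Some transmitter receptors showed opposite changes within a family. Of 44 listed receptors for glutamate, GABA, glycine and acetylcholine 31 were tested, with 5 higher, 8 lower and a median of -0.03. Gria4, an AMPA receptor subunit, gave 4289, 4024 and 3620 in R+ and 630, 769 and 844 in R- (2.40 ± 0.15, adjusted p = 6.74e-08; one other probe set was higher and one, at 0.60, did not pass). Gria3, of the same receptor, gave 59, 46 and 16 against 157, 347 and 173 (-2.25 ± 0.37). Its other subunits Gria1 (-0.81) and Gria2 (0.07) did not pass. Gabrb1, a GABA-A receptor subunit, gave 1625, 1357 and 1075 against 194, 220 and 135 (2.83 ± 0.28; a probe set at 1.27 did not pass), and Glra1, a glycine receptor subunit, gave 5, 13 and 24 against 146, 126 and 90 (-2.50 ± 0.39). Groups were separate in each case, and Gria3 and Glra1 were dim in R+. Without the arrays numbered 3 the list had 2 higher and 3 lower, without R- array 3 the lower count was 3, and without R+ array 1 the counts were 3 and 5. Without R- array 2 the lower count was 5. Among 19 tested of 45 listed monoamine, peptide and other receptors Lpar1 (1.32) and Oprl1 were higher and S1pr3 and Sstr2 lower; the 2 higher fell to 1 without R+ array 1 or 2 or R- array 2. Calcr, the calcitonin receptor, is on no list and was picked after its values were seen; it gave 1104, 1538 and 1295 against 80, 103 and 126 (3.56 ± 0.30, adjusted p = 9.6e-07).

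Of the axon guidance genes that changed most were lower in R+, with 1 marked exception. Lower genes were also the larger group over all genes tested, at 7.86% beside 4.34% higher. In the 3 lists, in the order below, 17.9%, 29.4% and 24% of tested members were lower and 3.57%, 5.88% and 0% higher. Of 28 tested semaphorins, plexins and neuropilins (31 listed) 1 was higher and 5 were lower (median 0.06); of 17 tested Eph receptors and ephrins (21 listed) 1 was higher and 5 were lower (median -0.26); and of 25 tested Slit, Robo, netrin and related genes (28 listed) 0 were higher and 6 lower (median -0.24). The exception was Nrp2, a neuropilin that binds class 3 semaphorins, with 8284, 6066 and 5799 in R+ and 2846, 2246 and 1956 in R- (1.51 ± 0.17, adjusted p = 1.73e-05). Its 2 other probe sets were higher too. Plxna2, a semaphorin co-receptor, gave 607, 719 and 585 against 1390, 1606 and 1492 (-1.22 ± 0.14); of its 3 other probe sets one was lower and those at -0.62 and -1.01 did not pass. Epha3, an ephrin receptor, gave 381, 332 and 400 against 1143, 1272 and 1178 (-1.67 ± 0.16). Robo3, which marks commissural axons, gave 69, 97 and 171 against 979, 1682 and 1168 (-3.44 ± 0.29), and Draxin, a secreted repellent of such axons, gave 1349, 1076 and 986 against 2470, 2752 and 2657 (-1.21 ± 0.20). Arrays of the groups did not overlap for any of these. Without the arrays numbered 2 the lower counts of the 3 lists were 1, 2 and 2, and the only higher Eph gene, Epha5 (0.80), was not called without R+ array 2. With any single rostral array left out 3 Eph genes were lower.

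Adhesion molecules changed in both directions. Of 33 listed cadherins and protocadherins 29 were tested, with 6 higher and 7 lower (median -0.09; 4 and 3 without the arrays numbered 2, and 4 lower without R+ array 1 or R- array 2). Cdh13, a cadherin anchored without a cytoplasmic tail, gave 4521, 4307 and 4426 in R+ and 1383, 1232 and 1291 in R- (1.76 ± 0.15, adjusted p = 1.57e-06). Pcdh19 gave 3409, 3297 and 3086 against 1409, 1437 and 1482 (1.17 ± 0.16), and Pcdh9 gave 2015, 1483 and 1426 against 816, 704 and 727 (1.11 ± 0.19; a second probe set at 1.39 did not pass). Cdh4, known as R-cadherin, lay lower with 492, 495 and 520 against 1363, 1587 and 1329 (-1.48 ± 0.18; a second probe set at -0.73 did not pass). Pcdh8 gave 1030, 1745 and 1346 against 2931, 4260 and 3465 (-1.38 ± 0.20), and the giant protocadherin Fat1 gave 2004, 2791 and 2207 against 4094, 5762 and 4656 (-1.05 ± 0.17). The groups stayed apart in all 6 genes.

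In the immunoglobulin, contactin and neurexin list, 36 of 43 were tested, with 9 higher, 5 lower and a median of 0.16 (4 higher without the arrays numbered 3). Of the tested contactins, which are linked to the axon membrane by a lipid anchor, Cntn1 was higher, Cntn2 was lower, and Cntn3 (-0.31 ± 0.45) and Cntn6 (0.18 ± 0.33) overlapped. Cntn1 gave 2804, 2517 and 2549 in R+ and 263, 317 and 385 in R- (3.00 ± 0.22, adjusted p = 3.67e-07; a second probe set was higher by 3.28 and another, at 0.47, did not pass). Cntn2 gave 424, 521 and 437 against 2958, 3749 and 3669 (-2.88 ± 0.17, adjusted p = 3.52e-08). Of 3 other Cntn2 probe sets one was lower by -2.96, and those at -1.47 and 0.39 did not pass. Nrxn2 gave 4044, 4472 and 3714 against 1894, 1969 and 1610 (1.16 ± 0.19), whereas Nrxn3 gave 515, 466 and 661 against 2532, 1822 and 1556 (-1.81 ± 0.24). Both are neurexins, presynaptic partners of neuroligins, and 1 of 4 other Nrxn3 probe sets was lower while 3 did not pass (-0.76 to 0.06). Alcam (1.55 ± 0.22; 2 of 3 other probe sets higher) and Negr1 (1.42 ± 0.14), cell adhesion molecules of axons, were also higher, and Dab1, an adaptor of reelin signalling, was lower (-1.53 ± 0.21; 2 of 3 other probe sets lower and one at -0.49). Cntnap2, a neurexin relative, was lower by less (-0.89 ± 0.12; a second probe set at -0.27 did not pass).

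**Figure D3:**
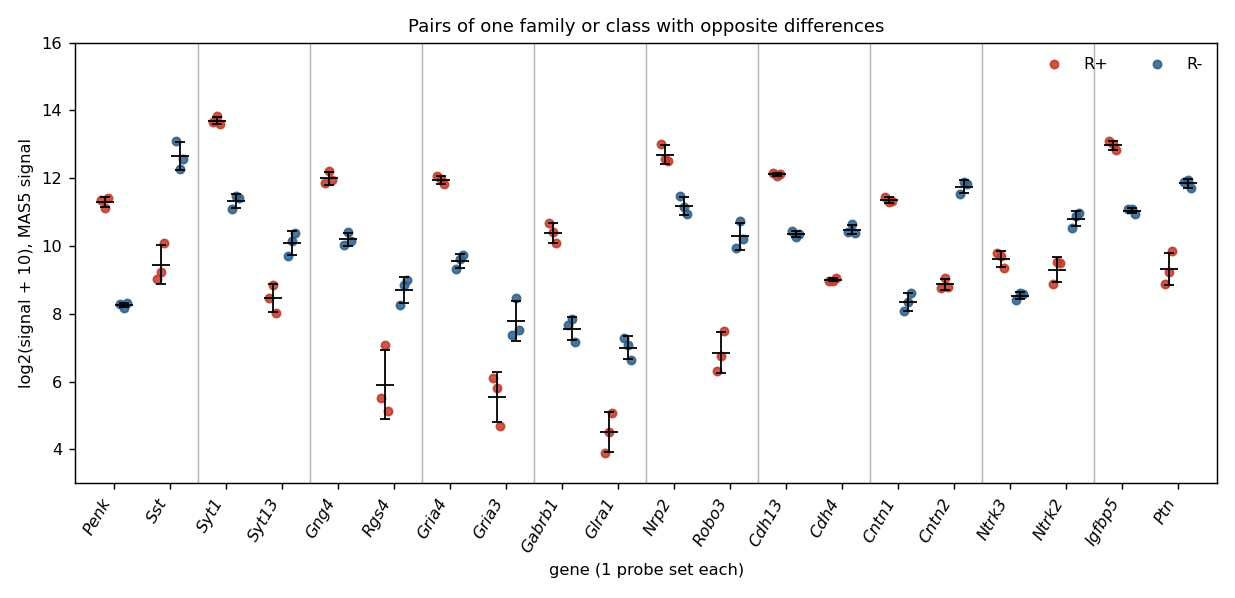
Points are the 3 R+ (red) and 3 R- (blue) arrays of each gene on the log2(signal + 10) scale with mean and SD bars, and grey lines part pairs of one family or class. In every pair the R+ arrays of the first gene lie above R- and those of the other below, as with Gria4 (2.40) beside Gria3 (-2.25) and Cntn1 (3.00) beside Cntn2 (-2.88).

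Growth factor signalling also moved both ways. Of 43 listed insulin, IGF and neurotrophic genes 32 were tested, with 7 higher, 8 lower and a median of 0.03 (4 higher without the arrays numbered 3 and 5 lower without those numbered 2). Igfbp5, a binding protein of insulin-like growth factors, gave 8678, 8196 and 7230 in R+ and 2183, 2154 and 1975 in R- (1.93 ± 0.15; a second probe set at 0.32 did not pass). Irs1, an adaptor below the insulin receptor, gave 4764, 5835 and 5329 against 1506, 2046 and 1959 (1.53 ± 0.16). Nrg3, a neuregulin, gave 445, 487 and 362 against 119, 84 and 119 (1.92 ± 0.26). None of these overlapped between R+ and R-. Of the neurotrophin receptors Ntrk3 was higher, with 872, 826 and 643 against 330, 383 and 376 (1.07 ± 0.18), and Ntrk2 lower, with 457, 725 and 720 against 1486, 1893 and 2010 (-1.51 ± 0.18). Other probe sets of both disagreed in part: 1 of 3 for Ntrk3 was higher, and of 5 for Ntrk2 2 were lower and 3 did not pass, at -0.04 to 0.27. The related heparin-binding factors Ptn and Mdk were lower, Ptn with 466, 593 and 909 against 3807, 3979 and 3321 (-2.53 ± 0.24; a probe set at -0.33 did not pass) and Mdk with 2016, 1749 and 2502 against 6528, 5173 and 6012 (-1.50 ± 0.16). Igfbpl1 was lower by -2.92 ± 0.21.

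Genes of the neuronal cytoskeleton passed at 14.6%, beside 12.2% of all genes tested. Of 41 tested cytoskeleton and axon growth genes (43 listed) 3 were higher and 3 lower (median 0.17); with the replicate block 15 were higher and 3 lower, without the arrays numbered 1 11 were higher, and without those numbered 3 none was. Single arrays moved it too, to 6 higher without R- array 1 and to 1 without R+ array 1 or R- array 2 or 3. The lower ones were intermediate filaments, among them Nefl with 3356, 3849 and 4077 in R+ and 8011, 10793 and 9694 in R- (-1.33 ± 0.15) and Nefm with 3291, 2004 and 2053 against 8016, 6014 and 5496 (-1.43 ± 0.19). Both lay well above the median in R+ and apart from R-. The tubulin Tubb3 (0.30) and doublecortin, Dcx (0.11), did not pass. Of 24 neuronal RNA-binding genes 3 were higher and 5 lower (median 0.05; without the arrays numbered 3 the counts were 0 and 1, with 2 lower without R+ array 2 and 3 lower without R+ array 3 or R- array 1 or 2), with Rbms3 at -1.11 ± 0.17 and other probe sets of it at -0.44 and -0.85 not passing. Among 19 tested of 26 listed calcium-binding proteins 7 were higher and 4 lower (median 0.40; 4 higher without the arrays numbered 3, 1 lower without those numbered 2, and 2 lower without any single rostral array). S100a10 gave 4667, 2966 and 3353 against 958, 644 and 718 (2.22 ± 0.21), and the neuronal calcium sensor Vsnl1 gave 2345, 2451 and 1981 against 516, 548 and 429 (2.16 ± 0.19). Necab2 (1.25 ± 0.18) and Ncald (1.13 ± 0.18) followed. Calb2, calretinin, gave 28, 222 and 39 against 354, 508 and 369 (-2.46 ± 0.50, adjusted p = 0.00369; 0.107 without the arrays numbered 3), so R+ array 2 stood above the other R+ arrays. The 39 tested genes of the mitochondrial respiratory chain, whose enzymes all these cells need, had 0 higher and 0 lower members and a median of 0.01; the block called none of them either.

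**Figure D4:**
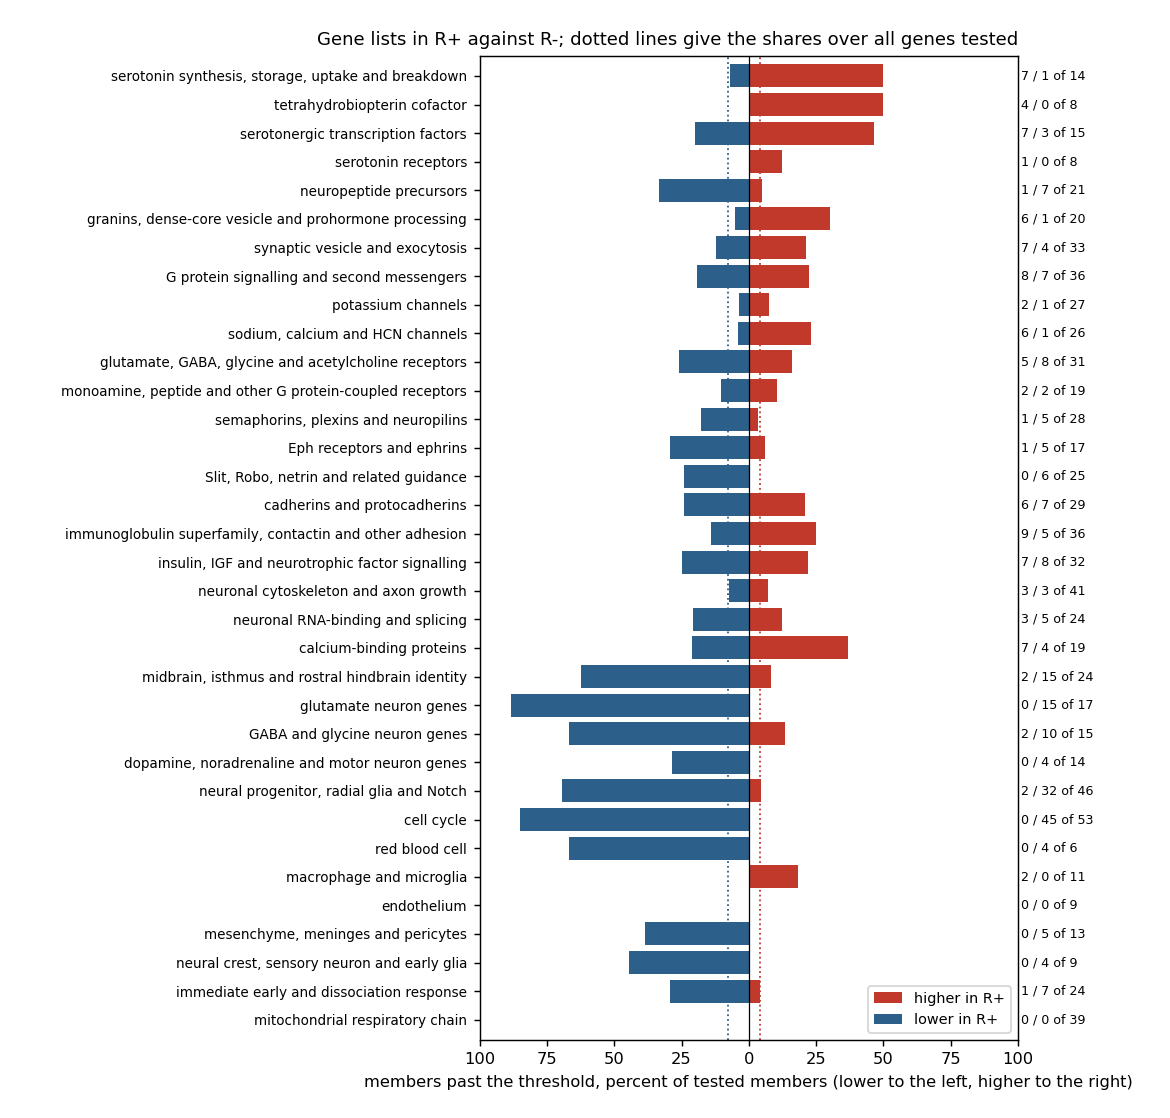
Bars give the share of each list's tested members that were higher (red, to the right) or lower (blue, to the left) in R+, in percent, with the counts at the right edge as higher / lower of tested. Dotted lines mark 4.34% higher and 7.86% lower over all genes; the lists of serotonin chemistry and cofactor genes reach 50% higher, and those of glutamate neurons and the cell cycle 88.2% and 84.9% lower.

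Regional identity genes of the midbrain and isthmus were mostly lower in R+. Of 28 listed 24 were tested, with 2 higher (En1 and Irx1), 15 lower and a median of -1.71; without the arrays numbered 2 neither of the higher ones passed, and without R+ array 1 or 3 or R- array 2 or 3 only 1 of them did. Otx1, a midbrain homeobox factor, gave 29, 12 and 17 in R+ and 375, 642 and 383 in R- (-4.02 ± 0.67, adjusted p = 0.000789), and its relative Otx2 gave 121, 148 and 290 against 1919, 1176 and 1678 (-3.09 ± 0.53). The dorsal factors Pax7, with 80, 67 and 198 against 1454, 1630 and 1632 (-3.81 ± 0.40), and Pax3, with 113, 100 and 194 against 1491, 1189 and 1264 (-3.23 ± 0.28), were lower too. These 4 were separate between the groups. Irx3, a patterning factor, was lower by -2.38 ± 0.18. Meis2, a homeobox cofactor, kept a high signal in both groups, with 2790, 3453 and 3118 against 10273, 10060 and 7172 (-1.54 ± 0.17), and Meis1 was lower by -1.27 ± 0.14; for each, 1 other probe set did not pass (-1.24 and -0.74).

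Most tested genes of glutamate neurons and of GABA and glycine neurons were lower in R+. Some genes stand in more than 1 list. Of 17 tested glutamate neuron genes (22 listed) 0 were higher and 15 lower (median -2.98), and of 15 tested GABA and glycine neuron genes (22 listed) 10 were lower and 2 higher (median -2.15). The higher ones were Gata2 and Gata3, which serotonin neurons and midbrain GABA neurons both use. Slc17a6, the vesicular glutamate transporter, gave 120, 160 and 149 in R+ and 1527, 1972 and 1521 in R- (-3.46 ± 0.28, adjusted p = 7.71e-07). Slc32a1, which loads GABA and glycine into vesicles, gave 315, 226 and 371 against 3353, 3209 and 2729 (-3.33 ± 0.22). Gad1, a GABA-synthesising enzyme, gave 147, 187 and 218 against 1398, 2210 and 1611 (-3.16 ± 0.19; a second probe set at -1.66 did not pass). On every R+ array these 3 transmitter genes were above the median of all values, and still apart from R-. Tal1 and Tal2, helix-loop-helix partners of the GATA factors in GABA neurons, gave 515, 663 and 899 against 6160, 5800 and 5057 (Tal1, -3.05 ± 0.19) and 76, 83 and 251 against 950, 1003 and 1327 (Tal2, -3.09 ± 0.49). They were lower while Gata2 and Gata3 were higher.

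Dopamine, noradrenaline and motor neuron genes (22 listed, 14 tested) had 0 higher and 4 lower members (median -0.91). Th, tyrosine hydroxylase of dopamine and noradrenaline synthesis, gave 55, 98 and 135 in R+ and 878, 494 and 590 in R- (-2.68 ± 0.37, adjusted p = 0.000174). Nr4a2, a factor of dopamine neurons, gave 558, 577 and 667 against 5327, 3573 and 3055 (-2.67 ± 0.18; 2 of 3 other probe sets were lower and one, at -1.19, did not pass), and Isl1, a motor neuron factor, gave 167, 135 and 147 against 534, 612 and 456 (-1.76 ± 0.25). Nkx6-1 was the fourth. R+ lay below R- on all arrays for each of them. Among the genes with the largest decreases were further neuronal factors: Nhlh2 gave 267, 364 and 479 against 4111, 4745 and 4367 (-3.58 ± 0.23), Ebf3 gave 513, 600 and 695 against 7183, 7754 and 6354 (-3.54 ± 0.15), and Mab21l1 gave 235, 241 and 422 against 2665, 3362 and 2734 (-3.29 ± 0.21). Skor1 (-3.58), Lhx9 (-3.54), Ebf2 (-3.48) and Tfap2a (-3.38) each had a probe set that did not pass (-0.93, -0.90, -2.28 and -0.44). Npnt, a matrix protein gene, was lower by -3.29 ± 0.26 on the probe set used and on one other (-2.55), while a pair of probe sets at -0.17 and -0.18 did not pass.

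Most tested progenitor and cell cycle genes were lower in R+. Of 47 listed progenitor, radial glia and Notch genes 46 were tested, with 32 lower (69.6%), 2 higher (4.35%) and a median of -1.37. Over all genes tested 7.86% were lower and 4.34% higher. Hes5, an effector of Notch, gave 402, 413 and 689 in R+ and 3470, 2051 and 3024 in R- (-2.49 ± 0.24, adjusted p = 4.37e-06), and the proneural factor Neurog2 gave 187, 253 and 361 against 2434, 2878 and 2423 (-3.27 ± 0.24). The 2 higher members were Nkx2-2, described above, and Sox1, a SoxB1 factor, with 2001, 2365 and 2033 against 689, 1030 and 845 (1.32 ± 0.17, adjusted p = 9.94e-05). Of 53 tested cell cycle genes (55 listed) 0 were higher and 45 lower (median -1.69), and without the arrays numbered 2 29 were lower. Mki67, a marker of dividing cells, gave 142, 395 and 310 against 1438, 2078 and 1674 (-2.67 ± 0.45). The groups were separate for these genes, and the summed signal of the tested cell cycle genes was 43793 to 52271 on the R+ arrays and 103554 to 119214 on the R- arrays. Such sums, here and below, weigh bright probe sets most. Among the brightest was the inhibitor Cdkn1c, with means of 8412 in R+ and 14356 in R-, which did not pass. The list also holds inhibitors that were lower, such as Cdkn1a and Cdkn2c, so it does not measure dividing cells alone.

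Markers of other cell types also moved with the sort, and their part in the other results was not tested. Of 6 tested red blood cell genes (12 listed) 4 were lower; their summed signal was 8938 to 15871 in R+ and 45466 to 59505 in R-. The embryonic globin Hbb-bh1 gave 212, 445 and 788 in R+ and 3563, 6649 and 6836 in R- (-3.66 ± 0.49). The globins Hba-x, with 2103, 2035 and 3880 against 24152, 15942 and 16926 (-2.87 ± 0.24), and Hbb-y, with 8351, 6159 and 10896 against 31149, 24649 and 21082 (-1.62 ± 0.24; 2 other probe sets at -0.81 and -0.79 did not pass), remained bright in R+. Globin genes are related in sequence, so their probe sets may share signal, which was not tested. Of 11 tested macrophage and microglia genes (17 listed) 2 were higher (18.2%, beside 4.34% of all genes tested). Lyz2, lysozyme, gave 1577, 414 and 333 against 167, 75 and 81 (2.47 ± 0.53, adjusted p = 0.00592). Pf4 gave 573, 532 and 455 against 202, 209 and 317 (1.09 ± 0.20, adjusted p = 0.00195). R+ array 1 was far above the others for Lyz2, and without the arrays numbered 2 neither gene passed (adjusted p = 0.0765 and 0.096). The summed macrophage signal was 2408 to 3882 in R+ and 1758 to 2490 in R-, while Csf1r (-0.14) and Cx3cr1 (-0.27) did not pass and Aif1, Itgam, Ptprc, C1qa, C1qc and Spi1 were too dim to be tested. Mesenchyme, meninges and pericyte genes had 5 lower of 13 tested (summed signal 1200 to 1846 against 2374 to 3317), and neural crest, sensory neuron and early glia genes had 4 lower of 9 (930 to 1336 against 3493 to 4253). The 4 were Foxd3 (-2.39), Pou4f1 (-2.80), Isl1 (-1.76) and Aldh1l1 (-1.04), of which Pou4f1 and Isl1 are also made by neurons of the neural tube, while Sox10, a defining crest factor, overlapped (0.72, adjusted p = 0.236). None of 9 tested endothelial genes changed (1239 to 1531 against 1440 to 1577; limma, 1 lower with the block). Without the arrays numbered 2 the mesenchyme and crest lists had 2 lower each, and the mesenchyme list had 2 without R- array 2 or 3 and 3 without R+ array 1. Of 24 immediate early and dissociation response genes 1 was higher (Klf6) and 7 were lower (median -0.18; 3 lower without the arrays numbered 2, 4 without R+ array 2 or R- array 1 or 2), and Fos (0.32) did not pass.

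Several of the largest increases lay outside the lists. Cryba2, a crystallin gene, gave 18949, 15160 and 17310 in R+ and 187, 184 and 184 in R- (6.45 ± 0.19, adjusted p = 3.06e-11). Cited1, a transcriptional coregulator, gave 2219, 1069 and 1513 against 86, 12 and 66 (4.83 ± 0.67), and Fgd5, an exchange factor of small GTPases, gave 3721, 4641 and 3784 against 306, 428 and 279 (3.56 ± 0.16). AW551984, a gene named only by a sequence tag, gave 8536, 9643 and 9957 against 555, 563 and 555 (4.04 ± 0.13, with 2 other probe sets also higher). A230006K03Rik gave 571, 746 and 702 against 66, 31 and 14 (4.01 ± 0.52). For 1700042O10Rik, at 717, 646 and 751 against 17, 4 and 10 (5.18 ± 0.39), the signal is uncertain, because RefSeq places it within the span of Ddc. No array of R- reached R+ in any of these genes, but the rule that named them required this.

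Most rostral differences had a counterpart in the caudal domain, where C+ and C- are separate arrays. Of the 557 higher genes 347 were also higher in C+ than in C- (of 734 higher there, 5.71% of genes tested), and of the 1010 lower genes 614 were also lower (of 949, 7.39%). In 9 of the higher and 11 of the lower genes the caudal difference was called in the opposite direction. The difference itself was tested as R+ minus R- less C+ minus C-. It passed for 150 genes (1.17% of 12845), with the rostral difference higher for 63 (0.49%) and lower for 87 (0.677%); with the block it passed for 340 (141 and 199). Without the 4 arrays numbered 2 it passed for 34 genes, without those numbered 3 for 27, and without those numbered 1 for 219. Without R+ array 2 and R+ array 3 respectively 37 and 38 genes had a higher rostral difference, and no single caudal array moved either direction's count by more than 1.5 times.

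Hmx2 had the greatest such difference. Its signals were 194, 58 and 116 in C+ and 197, 318 and 178 in C-, where the caudal difference was -0.96 ± 0.38 (adjusted p = 0.125), and the difference of differences was 6.76 ± 0.53 (adjusted p = 5.13e-06). In the caudal domain the groups overlapped at low signals. Pdzrn4, a ubiquitin ligase relative, gave 9157, 5640 and 4755 in R+ and 1023, 652 and 747 in R-, but 696, 276 and 343 in C+ and 1288, 951 and 996 in C- (4.34 ± 0.43, adjusted p = 6.51e-05). Nrp2 was likewise higher in the rostral and lower in the caudal YFP-positive cells, with 1408, 1242 and 1150 in C+ and 2875, 2588 and 2772 in C- (2.62 ± 0.23, adjusted p = 2.04e-05). Vstm2a, an immunoglobulin domain protein gene, gave 1447, 1514 and 1228 in R+ and 174, 248 and 258 in R-, and overlapped between C+ and C- (142, 187 and 146 against 176, 170 and 155; 2.67 ± 0.29). Cdh13 (2.09 ± 0.22) and A930009L07Rik (2.86 ± 0.22) differed in the same direction. In all of these the rostral YFP-positive cells stood above the other 3 populations.

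The opposite order, lower in R+ than in R- and higher in C+ than in C-, was found too. Shox2, a homeobox gene, gave 342, 523 and 570 in R+ and 2814, 2937 and 2829 in R-, against 19007, 18830 and 16780 in C+ and 3831, 3284 and 2945 in C- (-5.03 ± 0.24, adjusted p = 3.81e-08). Tac1 gave 130, 174 and 174 in R+ and 467, 469 and 664 in R-, against 3763, 5461 and 4036 in C+ and 569, 682 and 726 in C- (-4.39 ± 0.28). Ndnf, a secreted neurotrophic factor, gave 119, 173 and 182 in R+ and 354, 616 and 517 in R-, against 1899, 1923 and 2333 in C+ and 597, 812 and 810 in C- (-3.04 ± 0.32). Their R+ and C+ arrays lay on opposite sides of the YFP-negative cells. For Gad1 (-2.997 ± 0.26) and Meis2 (-1.93 ± 0.24) the rostral decrease had no called counterpart, with caudal differences of -0.17 and 0.39. In Ddc both domains rose, by 3.37 and 5.58, and the difference of -2.21 ± 0.20 (adjusted p = 2.39e-05; 0.0895 with the mean of its probe sets) went with R- signals of 1739, 1321 and 1315 and C- signals of 117, 125 and 135. Every R- array lay above every C- array for this gene.

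**Figure D5:**
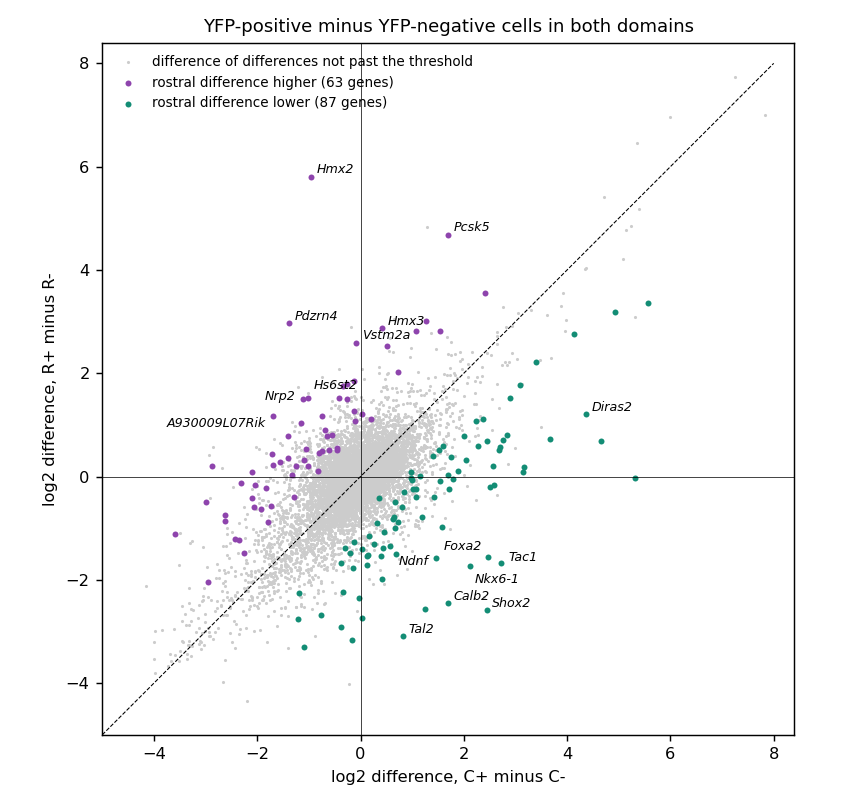
Each point is a gene, with the caudal difference (C+ minus C-) on the x axis and the rostral one (R+ minus R-) on the y axis, both in log2 units; the dashed line marks equal differences. Genes with a called difference of differences are purple (63, rostral higher, led by Hmx2 at 6.76) or green (87, rostral lower, with Shox2 at -5.03 among them), and the names are examples that were also called between R+ and R-.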

How the data were processed

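RNA of sorted YFP-positive and YFP-negative cells was measured on 12 Affymetrix Mouse 430 2.0 arrays, 3 in each of 4 groups, and every array was given its group by its title. The deposited values are whole-number MAS5 signals, a linear intensity per probe set, per the submitters' processing notes, which give no version or settings. A trimmed mean (without the top and bottom 2%) of 500 on every array shows that the authors scaled each array to the same level, which cannot show a shift of all genes at once. 

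Of 45101 probe sets, 64 controls, 932 with several gene symbols and 9160 without one were left out. The symbols of 34741 of the remaining 34945 were matched to RefSeq (GRCm38.p6) by Entrez number, and 0 changed. An offset of 10, the 10th percentile of the table, was added to each signal before log2 was taken. A probe set was kept with a signal over 107 on at least 3 arrays (22030 kept). Each of 12845 genes was represented by its brightest kept probe set, and 5561 genes had others. Probe sets with names ending in _x_at, which may bind several transcripts, were used only where a gene had no other, which held for 113 genes. Those ending in _s_at, which may also do so, were ranked with the rest and were used for Pcsk5 and other genes. All 12 arrays entered a fit of 4 group means with limma 3.58.1 in R 4.3.3 (eBayes with a trend), and p-values were adjusted by Benjamini and Hochberg over all genes with a threshold of 0.05. The script was tested on simulated data. RNA integrity ratios were compared with an exact permutation test. The number of arrays limits the precision.

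Genes named by rule were the 15 with the largest change in each direction. They were taken among called genes whose groups did not overlap and whose higher group mean was over 450. The rule also named the 8 genes with the largest difference of differences in each direction. These had to be called in that contrast and between R+ and R-, with a group mean over 450. Irs4, with a difference of differences of -5.33, was not called between R+ and R- and was left out by this rule. Other named genes are members of the lists, picked for description after their values were seen. The members and the lists were chosen with earlier results of these data known. The titles number the replicates but do not say whether arrays of the same number belong together. Deviations from the group means of the 18 same-numbered pairs of arrays correlated at 0.118 to 0.52 (rostral pairs 0.221 to 0.337). Those of the 36 other pairs correlated at -0.398 to 0.273, so the ranges overlapped. All 18 same-numbered pairs were over 0.1, and of the 36 other pairs 5 were. The main fit did not use the number. Fits with the number as a block were made too. Alternatives covered the offset, the filter, the choice of probe set, scaling, the arrays fitted, the variance trend, RNA integrity as a covariate and leaving out arrays; the fit of the 6 rostral arrays with the block and leaving out caudal arrays were chosen after seeing the data.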

Additional observations from a re-analysis of the deposited data

Results flagged for a closer look

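For 38 of the named genes the rostral difference (R+ minus R-) and the caudal one (C+ minus C-) themselves differed, by the interaction term of the limma fit (adjusted p under 0.05 over 12845 genes). The values are rostral minus caudal difference on the log2 scale ± SE. It was higher in 17 and lower in 21 genes, and in 11 both differences were called with opposite signs. The signals behind them rest on 3 arrays a group.

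Among genes of transmitter chemistry and lineage, Hmx2 stood at 6.76 ± 0.53 (rostral 5.80, caudal -0.96) and its relative Hmx3 at 2.45 ± 0.55 (2.87 and 0.42). Ddc was at -2.21 ± 0.20, Gata2 at -1.18 ± 0.22 (2.22 and 3.39) and Nkx2-2 at -1.37 ± 0.25 (2.77 and 4.14), where both domains rose. The ventral factors Foxa2 (-4.03 ± 0.47; rostral -1.57, caudal 2.46) and Nkx6-1 (-3.85 ± 0.52; -1.74 and 2.11) had opposite signs. In C+ Nkx6-1 gave 7259, 3570 and 2802 and in C- 1515, 749 and 773, so the caudal groups did not overlap either. Tal2 was at -3.92 ± 0.70, Nr4a2 at -1.91 ± 0.26, Gad1 at -2.997 ± 0.26, Meis1 at -1.14 ± 0.20 and Meis2 at -1.93 ± 0.24. Shox2 was at -5.03 ± 0.24.

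Among secreted and vesicle genes, Tac1 was at -4.39 ± 0.28, Cartpt at -1.54 ± 0.31, Ndnf at -3.04 ± 0.32, Npnt at -2.19 ± 0.36 and Pcsk5 at 2.98 ± 0.42 (4.68 and 1.70). Calb2 was at -4.14 ± 0.70, with 2340, 1258 and 1138 in C+ and 386, 492 and 505 in C-, opposite to its rostral order. Receptors and adhesion genes gave Gabrb1 at 1.76 ± 0.39, Ntrk3 at 1.19 ± 0.25, Nrp2 at 2.62 ± 0.23, Plxna2 at 1.14 ± 0.19, Epha3 at -1.28 ± 0.22 and Draxin at 1.23 ± 0.28. Cadherins and contactins gave Cdh13 at 2.09 ± 0.22, Pcdh19 at 1.91 ± 0.23, Cdh4 at -1.27 ± 0.25, Pcdh8 at -1.82 ± 0.28, Cntn1 at 1.75 ± 0.32, Cntnap2 at 0.90 ± 0.18 and the adaptor Dab1 at -1.67 ± 0.29.

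The remaining genes were Pdzrn4 at 4.34 ± 0.43, A930009L07Rik at 2.86 ± 0.22, Vstm2a at 2.67 ± 0.29, Fgd5 at 1.14 ± 0.23, the heparan sulfate sulfotransferase Hs6st2 at 2.54 ± 0.35 (1.52 and -1.02) and the small GTPase Diras2 at -3.16 ± 0.21 (1.21 and 4.37). Diras2 gave 1554, 1665 and 1474 in R+ and 633, 702 and 679 in R-, against 8058, 9449 and 10337 in C+ and 358, 501 and 467 in C-.

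Of the 38 genes 11 passed in each alternative that was run: A930009L07Rik, Cdh13, Gad1, Hmx2, Meis2, Ndnf, Nrp2, Pdzrn4, Shox2, Tac1 and Vstm2a. A further 12 were lost only without all 4 arrays of a replicate number: Calb2, Cntn1, Dab1, Epha3, Foxa2, Hs6st2, Nkx2-2, Nkx6-1, Pcdh19, Pcdh8, Pcsk5 and Tal2. The other 15 were lost elsewhere as well. Of these Cartpt, Cdh4, Cntnap2, Draxin, Fgd5, Gabrb1, Hmx3 and Ntrk3 were lost without single arrays, with adjusted p-values up to 0.748 (Draxin). Ddc (-1.32, adjusted p = 0.0895), Diras2 (adjusted p = 0.0598), Gata2, Meis1, Npnt, Nr4a2 and Plxna2 were lost with the mean of all probe sets of the gene. None changed sign under any alternative.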

How the results depend on the processing

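The count of genes that differed between R+ and R- depended most on the arrays used and on the replicate block. With the block 2684 genes passed (1103 higher, 1581 lower), and with the block and only the 6 rostral arrays, a fit chosen after seeing the data, 3173 did (1388 higher, 1785 lower). Leaving out arrays gave totals of 641 to 1608, with 199 to 580 higher and 425 to 1028 lower. The other settings gave 1336 to 1805 genes, and with every probe set on its own 1897 of 22030 probe sets passed. The rostral difference exceeded the caudal one or fell short of it in 340 genes with the block (141 and 199), in 27 to 219 genes with arrays left out (12 to 98 and 15 to 121), and with one median signal for every array in 120 genes, of which 38 (31.7%, against 42% as reported) had the higher rostral difference. No scaling moved the median difference of all genes by over 0.1.

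Of the named genes 130 were followed one by one through the alternatives. Of these 130, 121 kept their direction and their side of the threshold under each alternative run, and none changed direction. They were named by rule or picked after their values were seen, so this count does not stand for all genes tested. The alternative with every probe set on its own followed them through the probe set already used. Of 108 other probe sets of the called genes among them, 63 were called in the same direction. A further 41 with the same sign and 4 with the opposite sign did not pass. Other named genes were not among the 130, and calls such as those of Slc7a5, Cadps2 and Epha5 were lost as stated above. Among the 130, Calb2, Foxa2 and Qdpr did not pass without the arrays numbered 3. En1, Lyz2, Nkx6-1 and Pf4 did not pass without those numbered 2, nor did Diras2 with the mean of its probe sets (limma, adjusted p = 0.104). En2 passed with only the rostral arrays, with the block (adjusted p = 8.4e-05) and without it. The block over all arrays changed no call among these 130 genes. The cause of these changes was not tested. Of the lists' members only those over the signal filter could be tested, and dim genes have understated differences.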
